A study of Homo sapiens with 32 samples.

Results

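Loci that separate days from hours of androgen exposure were sought in LNCaP, an established human prostate cancer cell line, with cap analysis of gene expression (CAGE). CAGE counts the capped 5′ ends of RNA molecules, so a cluster of tags marks a place where transcription starts. Of 32 libraries in the series, 8 were compared, chosen by their labels: the late group is 48 h and 72 h with R1881, and the early group is 3 h and 6 h, with replicates 1 and 2 at each time. All 8 are LNCaP cells given R1881, a synthetic androgen, after 3 days without phenol red in 2.5% charcoal-stripped serum. The sample labels give 1 nM R1881 and the protocol shared by all samples gives 10 nM, so the dose is uncertain. The remaining times of the course (0, 12 and 18 h) and 9 LNCaP libraries of a second experiment were used only as libraries outside this comparison. The labels do not say whether the replicates came from separate cultures, so the p-values measure the spread between these libraries. Because no vehicle library was made for the course beyond 0 h, effects of R1881 and of time in culture cannot be told apart within it.

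Androgens bind the androgen receptor, a nuclear receptor that then binds DNA and changes transcription from nearby promoters. A nuclear receptor can act on some promoters within hours, while others change only after proteins made in the first wave have accumulated. Prostate epithelium depends on this receptor for its secretory function, and LNCaP keeps it. The deposited tables give a start site by its position in the human build hg19 and pair no position with a gene, so each locus is named here by chromosome, first and last base (counted from 1) and strand. No marker gene could therefore be read to check the cell line's label. Levels are in RPM, tag counts that the authors scaled to a common library total.

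Depth ranged from 140956 to 3837493 tags over the 8 libraries, with replicate 1 below replicate 2 at all 4 times. One tag was worth 5.70 RPM in the shallowest library, 6 h replicate 1, and 0.230 RPM in the deepest, 72 h replicate 2. The library of 6 h replicate 2 stands apart: across 12322 sites its log2 levels had a median correlation of 0.676 with the other 7, against 0.779 to 0.871 for the 3 h, 48 h and 72 h libraries. The 6 h replicate 1 library had 0.694. At 961 sites 6 h replicate 2 was more than 3-fold below each of the other 7 libraries. These sites also averaged at least 10 RPM over the course without replicate 2 of 6 h and 18 h. Of them 55 were called higher and 0 lower at late times, where 4.41% and 4.8% of all sites tested were. At 29 sites 6 h replicate 2 had at least 10 RPM and was more than 3-fold above the other libraries of the course, 18 h replicate 2 left aside. Of these 6 were called lower at late times. Choosing sites by a low or a high early library favours these directions. The counts of calls in this comparison are therefore also given without it below.

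Of 12322 sites tested with the replicate number as a block, 543 were higher at late times, or 4.41% of all sites tested, and 591 were lower, or 4.8% (edgeR's quasi-likelihood test, adjusted p under 0.05). The median log2 change was 1.79 for the higher sites and -2.01 for the lower, against -0.02 over all sites tested. With the 5 sites at 0 tags in a group set to their bound, the medians were 1.79 and -2.01. The smallest changes that were called were 0.89 and 0.96 in size. More than 4-fold (over 2 on the log2 scale) separated late from early at 223 higher and 297 lower sites. In RPM the late and the early libraries did not overlap at 482 of the 543 higher and 389 of the 591 lower sites, and over all sites tested 14.9% had no overlap. With 6 h replicate 2 left out of that count it was 485 and 429, and with 6 h replicate 1 left out instead 507 and 456.

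**Figure D1:**
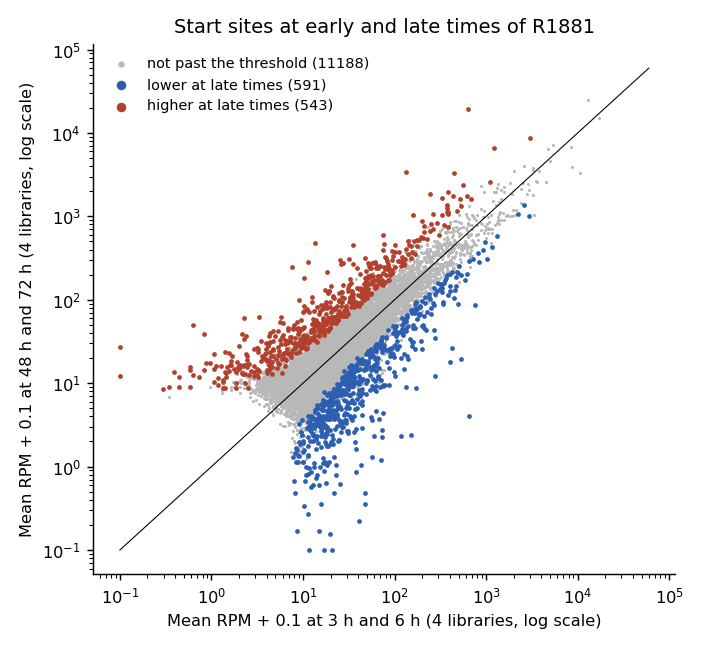
Each point is 1 of 12322 start sites, with the mean RPM of the 4 early libraries on the x axis and of the 4 late libraries on the y axis, both on log scales with 0.1 RPM added. The 543 sites higher at late times lie above the line of equality and the 591 lower sites below it, and the 2 points at the left edge have 0 tags in the early libraries.

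The sites that were higher took up a larger share of the late libraries. They held 3.44% and 3.52% of all reads in the 3 h libraries, 3.38% and 2.38% at 6 h, 13.5% and 11.3% at 48 h, and 12.5% and 14.1% at 72 h, for replicates 1 and 2. The lower sites held 4.82 to 7.15% of reads in the early libraries and 1.76 to 2.28% in the late ones. Neither share overlaps between the groups. These shares describe sites chosen for the difference.

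The most abundant late locus was chr19:18496833-18497279 on the plus strand. For replicates 1 and 2 its level was 421 and 1102 RPM at 3 h and then 542 and 457 at 6 h, 17842 and 13080 at 48 h, and 11523 and 34407 at 72 h. All 4 late libraries stood more than 10-fold above each early library. Means were 630 ± 318 RPM early and 19213 ± 10480 late (SD, n = 4 each), a log2 change of 4.90 (SE 0.436, adjusted p = 2.00e-05). In the libraries outside the comparison the locus had 617 and 964 RPM at 0 h, 1318 and 1779 at 12 h, and 3390 and 1094 at 18 h. Most of its rise thus lay between 18 h and 48 h.

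On chromosome 2 minus, chr2:238395773-238395861, a narrow cluster of 89 bp, ranked among the 8 largest fitted rises, but with no early tag its fitted change is not a measured size. It had 0 tags in all 4 early libraries, and 24.5 and 24.7 RPM at 48 h and 44.6 and 15.0 at 72 h. The late mean of 27.2 ± 12.5 RPM was at least 4.14-fold higher, where 3 tags in each early library, 6.57 RPM on average, set the bound (adjusted p = 0.000364). It had 7.97 and 9.43 RPM at 12 h, and 0 and 4.97 at 18 h. With 12 h and 18 h set against 0 h it did not pass (adjusted p = 0.114).

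On chromosome 12 plus, the cluster chr12:27863257-27863501 had 5 tags in the early libraries together and 671 in the late ones. It stood at 0 RPM in replicate 1 and at 1.55 and 0.583 RPM in replicate 2 of 3 h and 6 h. At 48 h it had 21.4 and 91.7 RPM and at 72 h 17.2 and 68.8, so that replicate 2 was the higher at both late times. The log2 change was 6.04 (SE 0.542, adjusted p = 2.00e-05).

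Another chromosome 19 locus, chr19:54371084-54371184 plus, went from 27.1, 17.1, 7.36 and 2.33 RPM (3 h and 6 h of replicate 1, then of replicate 2) to 358, 298, 511 and 764 RPM (48 h and 72 h in the same order). The groups are far apart, with a log2 change of 5.54 (SE 0.612, adjusted p = 0.000128). At 18 h it stood at 84.3 and 27.9 RPM, in both replicates above the early levels of the same number and below the late ones.

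A pair of loci were above their 0 h level at 3 h and 6 h, and higher again at late times. The broad cluster chr11:134094966-134095596 minus had 11.1 and 9.09 RPM at 0 h, and 66.7 and 115 at 3 h, with 291 and 65.3 at 6 h. Its later levels were 1791 and 793 RPM at 12 h and 2165 and 560 RPM at 18 h. They were 5761 and 2129 at 48 h, and 4525 and 1096 at 72 h, lower at 72 h than at 48 h in both replicates. Its late against early log2 change was 4.45 (SE 0.481, adjusted p = 0.00011). The cluster chr7:87936131-87936408 minus went from 2.08 to 22.8 RPM over the early libraries to 99.5 to 488 RPM over the late ones. Its log2 change was 4.42 (SE 0.531, adjusted p = 0.000221). At 0 h it had 0 and 0.275 RPM, the latter 1 tag. At 3 h it had 2.08 and 7.36 RPM, the former also 1 tag. At the 2 chromosome 19 loci above, the 3 h and 6 h levels were not all above those of 0 h. This contrast was not tested.

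The remaining 2 of the 8 largest rises were weak at early times. At chr7:150688135-150688224 plus the early libraries had 0 to 2.33 RPM and the late ones 16.8 to 68.2 (log2 4.94, SE 0.696, adjusted p = 0.000672). At chr12:50144353-50144464 plus the early libraries had 0 to 5.70 RPM, the highest being 1 tag in the shallowest library, and the late ones 10.7 to 54.8 (log2 4.43, SE 0.698, adjusted p = 0.00143).

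Among sites that averaged 10 RPM or more and whose groups did not overlap, the largest fitted fall was at chr1:222867611-222868200 on the minus strand. It had 728 and 585 RPM at 3 h and then 787 and 520 at 6 h, 7.64 and 3.23 at 48 h, and 4.06 and 0.691 at 72 h. The early libraries agree within a factor of 2 and all late ones are near 0. The log2 change was -7.75 (SE 0.501, adjusted p = 1.80e-06), from 655 ± 124 to 3.90 ± 2.87 RPM (SD, n = 4 each). The levels at 0 h, 752 and 575 RPM, lay within the range of the early libraries, and the 12 h (415 and 169) and 18 h levels (117 and 104) between early and late.

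Narrow clusters on chromosome 10 lost all or nearly all of their tags. Of the 591 lower sites 3 had 0 tags in the late libraries. On chromosome 10 minus, chr10:54789855-54789901 (47 bp) had 4.08 to 54.2 RPM in the early libraries and 0 tags in the late ones, at least 9.12-fold lower (adjusted p = 0.000816, with a bound of 2.28 RPM from 3 tags per late library). Farther along this strand, chr10:55036028-55036052 (25 bp) had 95.9 and 20.2 RPM at 3 h, 57.0 and 15.2 at 6 h, and 1 tag in the late libraries together. Scaled for depth, early tags outnumbered late tags 263-fold, with 46.3 to 10452 as the exact binomial 95% interval (adjusted p = 2.00e-05). Both chromosome 10 clusters were higher in replicate 1 than in replicate 2 at each early time.

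Others of the 8 largest falls among sites that averaged 10 RPM or more without overlap had 1 to 4 late tags. The cluster chr7:50547651-50547760 minus had 178 early tags and 1 late tag, a ratio of 349-fold scaled for depth (61.8 to 13858, adjusted p = 2.00e-05). The cluster chr20:2310894-2311059 plus had 128 and 2 tags (125-fold, 34.0 to 1047, adjusted p = 2.00e-05). The cluster chr1:20306094-20306148 minus had 67 and 1 (131-fold, 22.8 to 5264, adjusted p = 0.000221). The cluster chr13:70316110-70316337 minus had 159 and 3 (104-fold, 34.9 to 509, adjusted p = 0.000134), and it alone of these was higher in replicate 2 than in replicate 1 at both early times. The last, chr5:134659686-134659934 plus, went from 23.9 to 113 RPM over the early libraries to 0 to 4.59 over the late ones (log2 -6.36, SE 0.67, adjusted p = 0.000101). Such intervals cover counting error only.

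**Figure D2:**
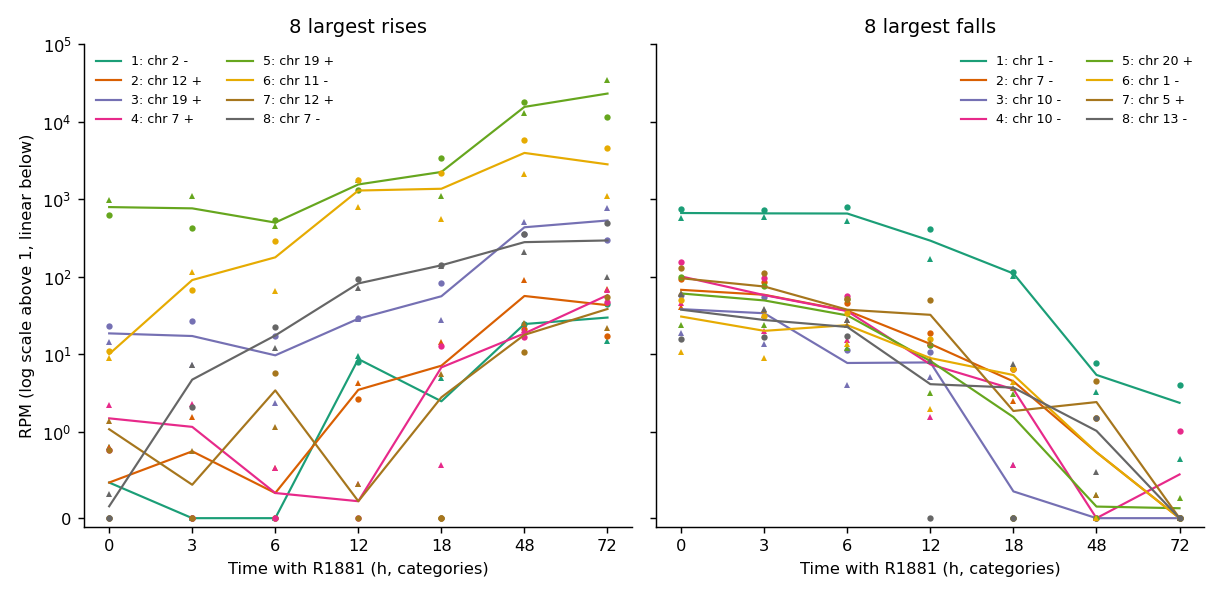
RPM of the 8 largest rises (left) and the 8 largest falls (right) at all 7 times, among sites averaging at least 10 RPM without overlap of groups. Lines join the means of 2 replicates, circles are replicate 1 and triangles replicate 2, and the y axis is logarithmic above 1 RPM and linear below. The rises are apart from their early level at 48 h and 72 h, while the falls have lost most of their 0 h level by 18 h.

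Apart from the chromosome 19 and chromosome 11 loci above, the most abundant loci named changed less. The cluster chr19:51358062-51358959 plus (898 bp) had 3677 and 2845 RPM at 3 h and then 4252 and 1336 at 6 h, 11062 and 5010 at 48 h, and 11907 and 6584 at 72 h (log2 1.46, SE 0.303, adjusted p = 0.00752). At 0 h it already stood at 2599 and 1532 RPM, so tags were frequent there before R1881. The cluster chr7:75931635-75932020 plus went from 606 to 2128 RPM early to 2577 to 12828 late (log2 2.17, SE 0.42, adjusted p = 0.00518). Its levels at 12 h, 1082 and 1678 RPM, were below the 1842 and 3334 RPM of 0 h.

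The 4 most abundant falls were near 2-fold or 3-fold. At chr14:103989131-103989225 minus, 3275, 3698, 2879 and 2045 RPM (3 h, then 6 h) became 948, 1346, 1065 and 731 (48 h, then 72 h). This fall was -1.59 on the log2 scale (SE 0.301, adjusted p = 0.00445). The other 3 were chr11:118888994-118889203 minus, which went from 2627 ± 212 to 1374 ± 85.5 RPM (SD, n = 4 each; adjusted p = 0.0337), chr1:93297513-93297671 plus, from 2235 ± 379 to 1079 ± 125 (adjusted p = 0.0244), and chr9:127624166-127624328 minus, from 1324 ± 554 to 579 ± 134 (adjusted p = 0.042). These 3 passed narrowly. Without any 1 library but 3 h or 6 h replicate 2, the chromosome 11 and chromosome 1 falls had adjusted p = 0.0848 to 0.115 and 0.0584 to 0.0971. The chromosome 9 fall was lost without replicate 1 of 3 h, 6 h or 72 h, or replicate 2 of 48 h or 72 h (adjusted p = 0.0695 to 0.169). The other 3 abundant loci kept their call without any 1 library and lost it in some smaller groupings. With 48 h or 72 h alone as the late group, chr19:51358062-51358959 had adjusted p = 0.109 and 0.0569, and chr14:103989131-103989225 0.133 and 0.0537. Within replicate 2 these 2 had 0.245 and 0.238, and chr7:75931635-75932020 0.0886. Without its 6 h library as well the chromosome 19 locus had 0.141, and within replicate 1 without 6 h the chromosome 7 locus had 0.122.

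The 16 named loci with the largest changes did not rest on a single library. Without any 1 of the 8 libraries, each that was tested stayed past the threshold, with an adjusted p of at most 0.00773. They did so in all other fits in which they were tested except the one within replicate 2 alone, where their adjusted p lay between 0.0524 and 0.063. Their direction was the same in both replicate numbers, which follows almost directly from choosing loci whose groups do not overlap.

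The number of calls moved more than the named loci did. Without 6 h replicate 2, 1014 sites were higher and 873 lower, and 538 of the 543 and 497 of the 591 sites were among them. Without 72 h replicate 2 the counts were 283 and 241, and without 48 h replicate 2 they were 349 and 377. With the 3 h libraries alone as the early group 927 sites were higher and 876 lower, and with no block 365 and 342.

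**Figure D3:**
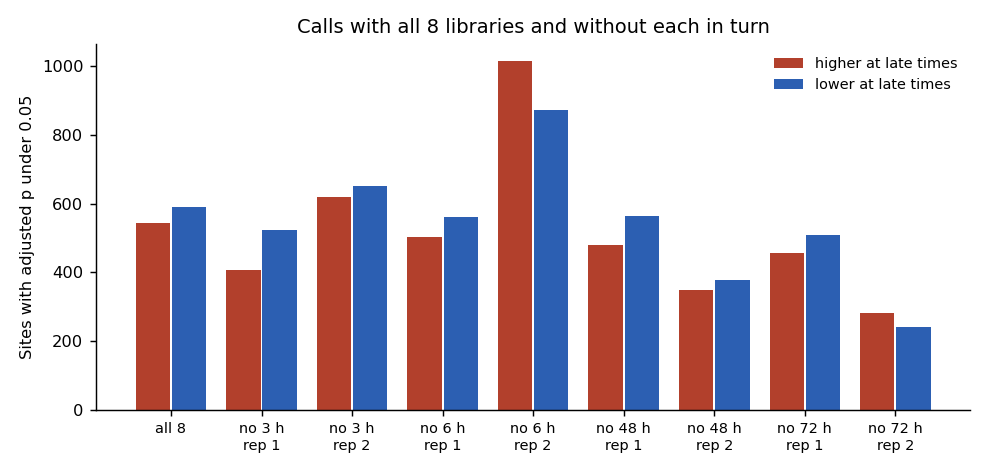
Bars give the number of sites with an adjusted p under 0.05, higher and lower at late times, with all 8 libraries and with each library left out in turn. Leaving out 6 h replicate 2 gave the most calls (1014 and 873) and leaving out 72 h replicate 2 the fewest (283 and 241).

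Replicate numbers were also taken apart. Within replicate 1 (2 late and 2 early libraries) 388 sites were higher and 339 lower of 7891 tested. Within replicate 2, which holds the library that stands apart, edgeR called 0 of 15172 sites. There 2313 had an unadjusted p under 0.05, and the smallest adjusted p was 0.0524. With its 6 h library left out 669 were higher and 882 lower, where the lone 3 h library is assumed to vary as the late ones do. Of the called sites tested within replicate 2, 541 of 541 higher and 581 of 581 lower sites kept their direction, which their choice on these libraries favours. The difference of the late against early change between replicate numbers passed at 0 of 13929 sites (edgeR), and 712 had an unadjusted p under 0.05.

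Libraries outside the comparison show when the called sites moved. At 0 h, before R1881, the 543 higher sites had a median of 0.05 relative to the early mean on the log2(RPM + 1) scale, and the 591 lower sites -0.13. The 0 h level was nearer to the early than to the late level at 503 of the 543 and 520 of the 591. Over all sites tested it was so at 7387 of 12322, and the called sites were chosen for a wide gap between these levels. At 12 h the medians were 0.68 and -0.51, and at 18 h 0.65 and -0.78, against -0.01 and -0.20 over all sites tested. At 48 h and 72 h they were 1.74 and 1.76 for the higher sites, and -1.72 and -1.90 for the lower. The higher sites as a group thus left the early level by 12 h. The lower sites in 0 h replicate 1 already stood at -0.48, below 12 h (-0.35) and 18 h (-0.45) of replicate 2. Within each replicate number their median fell from 0 h (-0.48 and -0.03) to 12 h (-0.84 and -0.35). Neither set had reached the late level by 18 h.

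**Figure D4:**
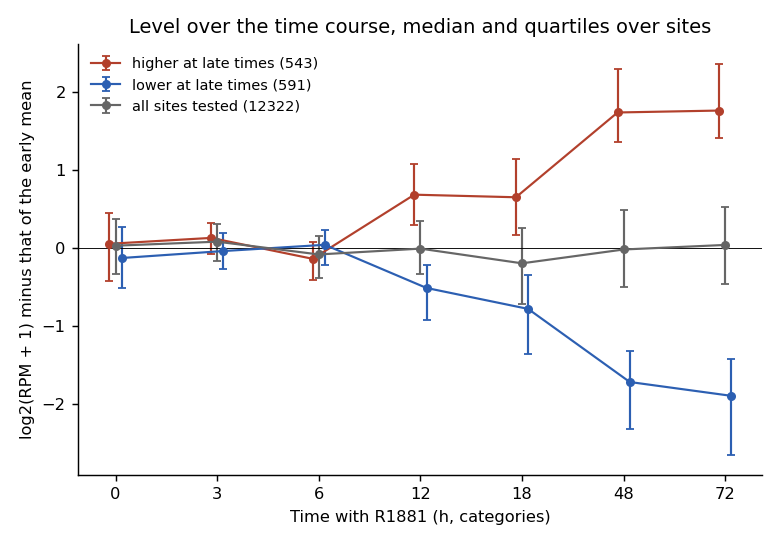
Points are medians and bars quartiles over sites of log2(RPM + 1) at each time minus that of the early mean, for the 543 higher, the 591 lower and all 12322 sites tested. The 3 h, 6 h, 48 h and 72 h values describe the comparison that chose the sites, whereas 0, 12 and 18 h come from other libraries, where the higher sites sat at 0.05, 0.68 and 0.65.

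Sites differed in how far they had moved at these times. At 12 h the median higher site had covered 36.6% of its way from the early to the late level (quartiles 18.1% and 56.8%), and at 18 h 35.2% (10.4% and 58.1%). For the lower sites it was 28.4% at 12 h and 44.8% at 18 h. More than 50% of the way was covered at 18 h by 184 higher and 266 lower sites. The 18 h libraries differ in this, with a median over the lower sites of -1.51 in replicate 1 and -0.45 in replicate 2 (-0.44 and -0.16 over all sites tested), and 18 h replicate 1 is the shallowest library of the course. Within the late group 301 of 543 higher sites were higher at 72 h than at 48 h (median difference 0.05). Over all sites tested it was 6468 of 12322 (median 0.02). Of the lower sites 208 of 591 were higher at 72 h (median -0.17). By replicate, their medians relative to the early mean were -1.96 at 48 h and -1.85 at 72 h in replicate 1. In replicate 2 they were -1.55 and -2.17, so as a set they stood lower still at 72 h in replicate 2 only. These medians describe the sets and not single sites, and the difference was not tested.

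A comparison that shares no library with the one above gave part of the same list. With 12 h and 18 h against 0 h, again with the replicate block, 311 of 13747 sites were higher (2.26%) and 88 lower (0.64%). Of the 543 sites higher at late times 469 were tested there. Their median log2 change was 0.77, with 377 positive, and 71 were called higher and 1 lower. Of the 591 lower sites 576 were tested, with a median of -0.42 and 418 negative, and 45 were called lower and 14 higher. Over all 11826 sites tested in both the median was -0.04. The 71 shared rises are 13.1% of the late list and 22.8% of the 12 h and 18 h list, and the 45 shared falls 7.61% and 51.1%. The chromosome 11 and chromosome 7 minus loci that rose early had log2 changes of 6.85 (adjusted p = 1.60e-06) and 8.73 (adjusted p = 1.01e-05) here. The chromosome 7 cluster had 1 tag in the 0 h libraries together, so its 8.73 is not a measured size. The 2 chromosome 19 loci had 1.17 and 1.30 (adjusted p = 0.257 and 0.167).

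These counts for 12 h and 18 h turn on single libraries. They were 77 higher and 17 lower without 0 h replicate 1, 124 and 17 without 0 h replicate 2, 131 and 34 without 12 h replicate 1, and 839 and 686 without 12 h replicate 2. Without 18 h replicate 1 they were 46 and 7, and without 18 h replicate 2 710 and 390. With no block 56 and 4 passed.

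The second experiment has ethanol, the vehicle, at 6 and 24 h, and so bears on time in culture only up to 24 h. It has no vehicle library at 48 h or 72 h, the times of the late group. It holds 1 LNCaP library for each treatment and time, with 4535853 to 7753336 tags, so no test was made. Positions inside 437 of the higher and 539 of the lower clusters were found there, out of 10971 matched sites in all. From 6 h to 24 h in ethanol the higher sites had a median log2 ratio of -0.03 and the lower sites -0.02, and all matched sites -0.01. Single lower sites spread more widely there, with quartiles of -0.26 and 0.25 against -0.15 and 0.15 over all matched sites. From 6 h to 24 h with 10 nM dihydrotestosterone (DHT, a natural androgen) the medians were 0.30 and -0.27, with 348 of 437 above 0 and 434 of 539 below. All matched sites had -0.0048.

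Set against ethanol, DHT gave the same split at 24 h and not at 6 h. At 24 h the medians were 0.29 for the higher sites (337 of 437 above 0) and -0.30 for the lower (417 of 539 below 0), with -0.06 over all matched sites. At 6 h they were -0.10 and 0.01, with -0.06 over all. DHT with 1 µM bicalutamide, an antagonist of the androgen receptor, gave 0.13 and -0.18 at 24 h, and bicalutamide alone -0.01 and -0.12, with -0.05 and -0.07 over all. The ratios at 24 h share the ethanol library of that time, and the DHT ratios share the DHT libraries.

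**Figure D5:**
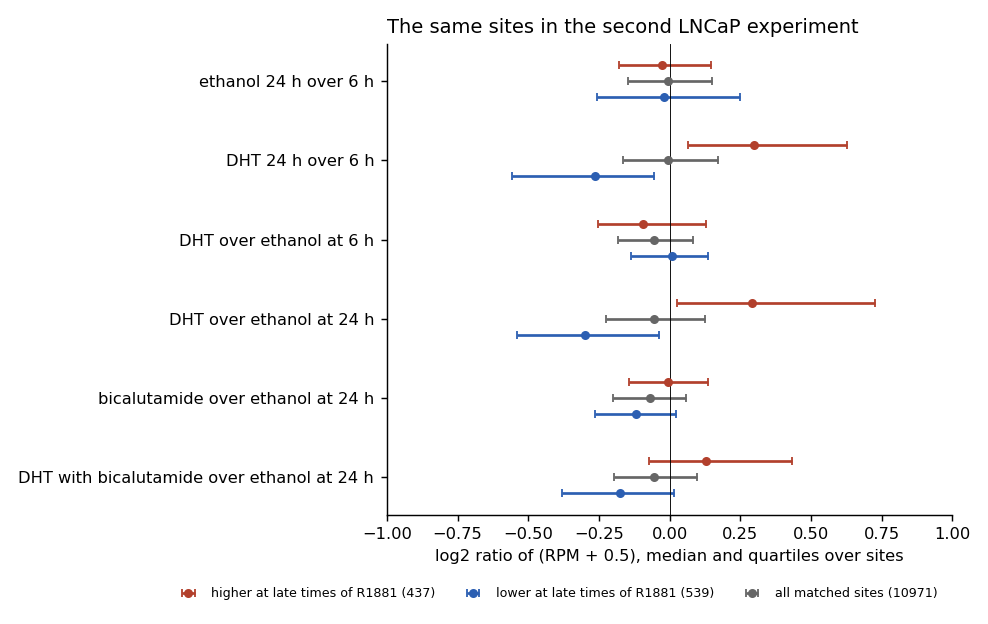
Medians and quartiles over sites of log2 ratios between 2 LNCaP libraries of the second experiment, with 0.5 RPM added, for sites higher (437) or lower (539) at late times of R1881 and all 10971 matched sites. The medians of the sets part from each other in DHT at 24 h (0.29 and -0.30 against ethanol). From 6 h to 24 h in ethanol the medians lie within 0.03 of 0.

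Single loci differed in the second experiment. The abundant chr19:18496833-18497279 locus had 613 and 657 RPM with ethanol and DHT at 6 h, and 526 and 1230 at 24 h. The chr12:50144353-50144464 cluster had 1.26 RPM with ethanol and 12.6 with DHT at 24 h. The chr10:54789855-54789901 cluster had 57.8 and 13.9 RPM with ethanol and DHT at 24 h. In contrast chr1:222867611-222868200, the largest fall with R1881 among the named loci, had 550 and 452 RPM, and chr7:75931635-75932020, a rise with R1881, had 1495 and 1000.

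Called sites lay close together at some places. Windows of 500 kb were counted after the calls were known, so what follows is a description. In a window on chromosome 1, 8 of 12 tested sites were higher and 0 lower, all 8 on the minus strand between 55315513 and 55352994, with log2 changes of 2.03 to 4.25. Their summed level was 188 to 400 RPM over the early libraries and 2003 to 2632 over the late ones, with 699 to 801 at 12 h and 18 h. On chromosome 19, 7 of 24 sites in the window were higher and 1 lower, and the 7 lay on both strands between 51308026 and 51412812. They include the abundant chr19:51358062-51358959 cluster, and their sum went from 2026 to 5939 RPM early to 7272 to 16167 late. In another chromosome 1 window, 6 of 13 sites were higher, between 36621691 and 36851539 (75.2 to 134 RPM summed early, 257 to 582 late).

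Among windows with falls, 1 on chromosome 6 had 9 of 24 sites lower and 0 higher, the 9 lying between 26020637 and 26199875. Their sum differed between the replicates. In replicate 1 it was 928 and 707 RPM at 3 h and 6 h and 570 and 396 at 48 h and 72 h. In replicate 2 it was 4294 and 5969 RPM at 3 h and 6 h and 822 and 543 at 48 h and 72 h. In the second experiment the same sites summed to 4397 RPM in ethanol at 6 h and 2726 at 24 h, and to 4286 and 3043 with DHT, so here the level was lower at 24 h in the vehicle too. On chromosome 12, 6 of 7 sites were lower, between 81771757 and 81992363, from 446 to 720 RPM summed early to 181 to 253 late. On chromosome 5, 6 of 12 sites were lower, all on the minus strand between 107600343 and 107716691, from 123 to 184 RPM summed early to 16.6 to 53.0 late.

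Start sites near each other on a strand did not always move together. Sites within 10000 bp of the next were joined into neighbourhoods, and 43 of 1280 neighbourhoods (3.36%) showed unequal change between early and late times (edgeR's diffSpliceDGE, Simes method). In 29 of the 43 a single site was called, and in 6 1 site was higher and another lower. The lowest adjusted p belonged to the pair around the chromosome 12 locus (adjusted p = 8.99e-06). Its other cluster, chr12:27863603-27863865 plus, begins after a gap of 101 bp and had 105 ± 51.4 RPM early and 107 ± 26.1 late (log2 -0.04, SE 0.326), while chr12:27863257-27863501 upstream of it rose from 0.533 ± 0.732 to 49.8 ± 36.4. The downstream level thus differed by less than the spread between libraries.

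The other leading neighbourhoods each held changes in both directions. On chromosome 17 minus, 10 sites between 80049119 and 80064475 made up a neighbourhood (adjusted p = 3.45e-05). The main one, chr17:80055996-80056306, rose from 445 ± 188 to 3322 ± 1673 RPM (log2 2.83, SE 0.378), and 4 weaker sites downstream of it rose as well, with log2 changes of 2.06 to 3.11. The site chr17:80059613-80059861, upstream on this strand, went from 8.07 ± 1.80 to 1.34 ± 1.10 RPM (log2 -2.55, SE 0.624), and the most upstream site stood at 163 and 173 RPM. On chromosome 8 plus, chr8:11660120-11660768 rose from 266 ± 81.5 to 1081 ± 545 RPM (log2 1.88, SE 0.296), while chr8:11665906-11666063, after a gap of 5137 bp, fell from 37.9 ± 13.2 to 16.1 ± 1.92 (log2 -1.26, SE 0.345; neighbourhood adjusted p = 3.83e-05). The count of 43 became 22 or 27 without 3 h replicate 1 or 2, 96 without 6 h replicate 2, 24 without 48 h replicate 2, and 19 or 10 without 72 h replicate 1 or 2.

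In most places with more than 1 called site the direction was shared. Of 78 neighbourhoods with at least 2 called sites, 72 had all of them in 1 direction and 6 had both. Across strands, 92 higher sites had a tested site on the opposite strand within 1000 bp. Of these partners 13 were called higher and 0 lower, where 4.41% and 4.8% of all sites tested were, with a median log2 change of 0.43. For 120 lower sites the nearest such partner was called lower in 19 cases and higher in 0 (median -0.52). A pair with both sites called can be counted from each side, so these are counts of sites and not of separate pairs. Over all sites the median was -0.02.

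The clusters themselves differed somewhat in shape and place. Higher sites were wider, with a median of 204 bp against 174 bp for lower sites and 164 bp over all sites tested. They were also more abundant (median 41.1 RPM over the 8 libraries against 21.4 for the lower and 22.3 for all), and 40.9% had a neighbour on the same strand, against 27.6% and 24.5%. An opposite-strand site within 1000 bp was found for 16.9% of higher, 20.3% of lower and 23.7% of all sites. By chromosome, lower sites made up 8.36% of those tested on chromosome 6 and 8.18% on chromosome 21, and 2.59% on chromosomes 19 and 22. Higher sites ranged from 2.87% on chromosome 3 to 6.35% on chromosome 11 among the autosomes. Such differences were not tested, and a site with more tags reaches the threshold at a smaller change.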

How the data were processed

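CAGE libraries were read on a HeliScope sequencer, per the labels' protocols, and the genome build was hg19, per the submitters' processing notes. How tags were aligned, clustered and filtered is not given in the sources used here. Per the file headers, each deposited table gives raw tag counts per site (whole numbers, not normalized) and a normalized value. The deposited RPM values are each library's tag counts times 1 factor, whose implied library total exceeds the sum over the listed sites. The table of the R1881 course lists 19534 clusters, and that of the second experiment 13294 single positions, which were matched by position inside a cluster on the same strand.

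Counts were tested in R 4.3.3 with edgeR 4.0.16: filterByExpr with a minimum count of 10, TMM, the quasi-likelihood F test with the replicate number as a block, and Benjamini-Hochberg adjustment over all sites tested. The fit was tested on simulated data. SE is the size of the log2 change over the square root of F. The block was planned with the comparison, although the meaning of the replicate numbers is not in the labels. Same-numbered libraries deviated together for all 6 pairs of the 4 times (correlations 0.133 to 0.35). Replicate 1 was shallower than replicate 2 at all 4 times, so these correlations cannot tell pairing from depth. Alternatives were DESeq2 1.42.0, other scalings, filters and groupings, and each library left out.

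Named sites had a mean of at least 10 RPM and no overlap between groups: the 8 largest log2 changes and the 4 most abundant each way, and the 3 leading neighbourhoods. Members, rules and lists were chosen with earlier results of these data known. The gene and promoter tables at hand are for another build, so no site was given a gene name or a sequence, and the gene lists and cell type markers could not be used.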

Additional observations from a re-analysis of the deposited data

Results flagged for a closer look

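Groups of 4 libraries were examined, 54 in all, for the 22 named loci and for 5 properties of the libraries. Of these groups 6 held a library whose gap to the others passed Dixon's 95% limit. At 3 loci this was a single late tag in replicate 1 where the other late libraries had 0: 1.53 RPM at 48 h for chr7:50547651-50547760 and for chr1:20306094-20306148, and 1.01 RPM at 72 h for chr10:55036028-55036052. At chr5:134659686-134659934 the 48 h library of replicate 1 had 4.59 RPM and the next late library 0.269. At chr9:127624166-127624328 the 6 h library of replicate 2 had 2147 RPM and the next early library 1159, and without that library the fall there had an adjusted p of 0.0275 (edgeR). The share of reads at the 543 higher sites was 2.38% in 6 h replicate 2, with 3.38% in the next early library. What sets the 6 h replicate 2 library apart was not tested.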

How the results depend on the processing

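Directions of calls held: no called site of late against early was called the other way in any of the 23 alternative fits. Each of these fits used libraries that had chosen the calls, which favours this outcome. No named locus changed sign, which their choice for groups without overlap makes all but certain. Of 387 lower sites tested within replicate 1 without 6 h, 1 changed sign, without a call. The sizes of the lists moved. Against 543 higher and 591 lower sites, no filter on low counts gave 843 higher, 1 coefficient per time with the replicate block 1157 higher, and all 14 libraries with the block 1812 and 1284. With only 3 h or only 6 h as early, 927 and 914 were higher. With only 48 h or only 72 h as late, with fewer libraries, 83 and 53 or 166 and 207 passed. Without the replicate block 342 were lower. Within replicate 1 339 were lower, without its 6 h library as well 202, and within replicate 2 0 and 0. Leaving out 1 library gave 283 to 1014 higher and 241 to 873 lower. DESeq2 with the block called 719 and 766. For 12 h and 18 h against 0 h (311 and 88), no replicate block gave 56 and 4, no filter 519 and 262, 12 h alone, added after the data were seen, 906 and 464, and 1 library left out 46 to 839 and 7 to 686. Unequal neighbourhoods (43) were 27 with links of 1000 bp, 188 with 50000 bp, 68 without both 6 h libraries (added later), and 10 to 96 without 1 library. The replicate interaction gave 0 in each alternative. The cause of these shifts was not tested. The fits within 1 replicate without its 6 h library were also added after the data were seen. The depth of 6 h replicate 1, where 3 tags are 17.1 RPM, limits what can be seen of weak early sites.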
